A study of Mus musculus with 36 samples.

Results

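The 3 Shank scaffold genes and Gm15609, the annotated row that lies opposite Shank3 exon 10, were followed through 36 libraries of ribosome-bound RNA from mouse cortex. They are 4 of the 55470 gene rows in each library's file and were found by matching the Ensembl identifiers to mouse symbols. Shank1, Shank2 and Shank3 were taken by name. Gm15609 was taken for its position and after its level had been seen to differ between genotypes, so its genotype values are a description without a test.

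The mice carried a tagged ribosomal protein, HA-Rpl22(f/+), and Camk2a-Cre(+/-), which turns the tag on in Camk2a-expressing cells, so that ribosomes of cortical pyramidal neurons and the RNA on them could be pulled down through the tag (the RiboTag method). Wild-type (WT) mice were Shank3(+/+) and mutant mice were Shank3(deltaC/+), written Shank3(∆C/+) below, on a strain labelled C57BL6JL. Both genotypes carried the tag and the Cre, and one protocol field of the labels writes the tag as HA-Rpl22(f/f). Some mice were naive, and the others swam under stress in water at 25 °C and were taken 1 h or 4 h later. The swim is given as 5 min in one label and 6 min in another. In cohort 1 there were 3 naive WT, 3 naive Shank3(∆C/+), 6 WT 1 h and 5 Shank3(∆C/+) 1 h libraries. In cohort 2 there were 4 naive WT, 4 naive Shank3(∆C/+), 5 WT 4 h and 6 Shank3(∆C/+) 4 h libraries. Each swim group was compared only with the naive mice of its own genotype and cohort. The age and sex of the mice, and the part of Shank3 that the ∆C allele lacks, are not given in the sources used here.

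Shank proteins are large scaffolds of the postsynaptic density, the protein layer under the receptors of excitatory synapses. They sit in its deeper part, where their PDZ domain holds SAPAP proteins (the Dlgap genes), which in turn bind PSD-95 (Dlg4), while proline-rich stretches bind Homer proteins and cortactin, a regulator of actin. All 3 genes are expressed in cortical neurons, and loss of one copy of SHANK3 in people is a known cause of a syndrome with autism and intellectual disability.

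In the mm10 build with the GENCODE vM21 annotation, Shank3 (ENSMUSG00000022623) lies on the plus strand at chr15:89499623-89560261. Gm15609 (ENSMUSG00000086602), typed as a lincRNA with no known function, lies inside it on the minus strand at chr15:89520096-89523677. Its first exon, chr15:89523597-89523677, and most of its second, chr15:89520096-89522974, are opposite Shank3 introns. The shared exonic stretch is 271 bases, which is all of exon 10 of Shank3, as numbered in the GENCODE transcript used here. That stretch is 9.16% of the exon bases of Gm15609 and 2.95% of those of Shank3, so 2608 bases of the second Gm15609 exon face intron. The exon is protein coding and is printed on the Shank3 strand, because a read inside it can be counted for either row according to the strand rule used. Capitals mark the bases shared with Gm15609, and the lower-case ends are 12 bases each of exons 9 and 11.
Shank3 exon 10, chr15:89521103-89521373, plus strand: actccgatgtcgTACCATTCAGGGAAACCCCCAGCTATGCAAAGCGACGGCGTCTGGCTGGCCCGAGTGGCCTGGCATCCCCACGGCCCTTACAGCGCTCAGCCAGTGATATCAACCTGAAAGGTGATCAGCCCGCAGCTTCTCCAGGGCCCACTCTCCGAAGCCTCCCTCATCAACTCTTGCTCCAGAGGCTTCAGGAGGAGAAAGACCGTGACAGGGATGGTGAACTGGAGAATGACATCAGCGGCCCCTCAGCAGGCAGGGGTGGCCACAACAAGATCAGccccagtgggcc
The first exon of Gm15609 is 81 bases with 77.8% G or C, against 59.8% in the 271 bases above. It is printed on the minus strand as the part of Gm15609 that no Shank3 exon faces, with no base singled out.
Gm15609 exon 1, chr15:89523597-89523677, minus strand: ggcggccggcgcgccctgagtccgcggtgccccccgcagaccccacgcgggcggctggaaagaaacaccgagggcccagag

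The other family members lie on chromosome 7. Shank1 (ENSMUSG00000038738) is at chr7:44310253-44360572 on the plus strand, and 339 of its exon bases, at chr7:44360043-44360381, face an exon of the protein-coding gene 1700008O03Rik. Shank2 (ENSMUSG00000037541) is at chr7:144001928-144424494 on the plus strand and has no annotated exon opposite it. Over all libraries Gm15609 held 4318 counts, Shank2 3142, Shank1 2759 and Shank3 999, and 1700008O03Rik held 1922.

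Libraries held 0.884 to 3.52 M counts. A total of 75.2% of all counts lay on rows with an exon opposite another gene, and 22.7% lay on rows typed antisense that face a coding exon. Whether the counting used strand is not given in the sources used here, so reads of Shank3 exon 10 and of Gm15609 cannot be told apart. The kit marks strand, and a counting setting opposite to the kit would put reads of Shank3 exon 10 on the Gm15609 row and leave the Shank rows with reads from the other strand. Whether the setting was opposite was not tested, so every level here is that of a row as counted. For each library a pair share was computed, the percent of the counts of 1813 such antisense and coding pairs that lay on the coding row. None of the 4 members belongs to these pairs, since Gm15609 is not typed antisense. The mean pair share was 10.8 to 13.2% in naive groups, 14.0 and 14.4% at 1 h, and 23.2% in WT and 25.5% in Shank3(∆C/+) mice at 4 h. In 3 libraries a ribosomal RNA row took over 10% of the counts: naive Shank3(∆C/+) replicates 6 and 7, with 13.5 and 38.6%, and WT 1 h replicate 5, with 10.5%. Marker lists are given with the swim results.

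Levels are counts per M (CPM) at the TMM-scaled library size, a scaling that assumes most genes do not change. Per kilobase of exon, Gm15609 stood highest in 36 of 36 libraries, with 29.5 ± 15.9 CPM per kb (SD, n = 36). Shank1 followed with 3.70 ± 1.16 and Shank2 with 3.33 ± 2.03 CPM per kb, and Shank3 was lowest with 1.37 ± 0.714 (SD, n = 36 each). Over all libraries the spreads of Shank1 and Shank2 overlapped, but their order went with the condition: Shank1 stood above Shank2 in 14 of 14 naive and 10 of 11 libraries at 1 h, and Shank2 above Shank1 in 11 of 11 at 4 h. Shank3 was last in 35 of the 36 libraries and stood above Shank2 in the other. In means, Shank2 held 1.98 to 2.2 CPM per kb in the naive groups and 5.34 in WT and 6.47 in Shank3(∆C/+) mice at 4 h, while Shank1 held 3.07 to 4.46 in the naive groups and 3.55 and 4.83 at 4 h.

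**Figure D1:**
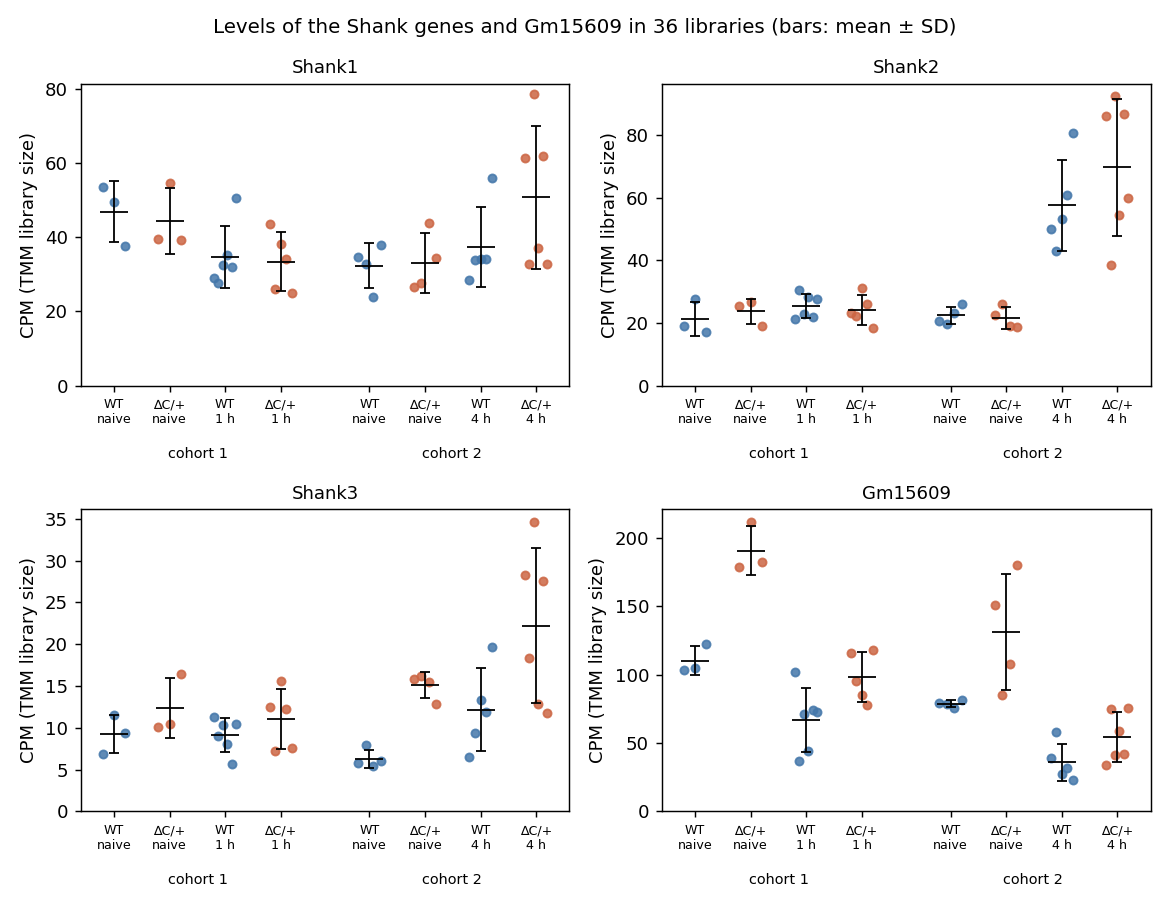
CPM of Shank1, Shank2, Shank3 and Gm15609 in each of the 36 libraries (points; WT blue, Shank3(∆C/+) orange), with the group mean and SD (bars), by cohort and condition. All Shank2 points at 4 h lie above the naive points of their cohort, all Gm15609 points at 4 h lie below them, and the Gm15609 axis reaches 211.6 CPM where that of Shank3 reaches 34.6.

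Shank3, the gene that the allele changes, was counted over its whole length, so its row does not check the genotype labels. It had few counts: 4, 10 and 6 in the naive WT libraries of cohort 1 and 5, 6, 8 and 6 in those of cohort 2. The naive Shank3(∆C/+) libraries held 10, 9 and 13 counts in cohort 1 and 12, 30, 13 and 9 in cohort 2. No group of mutant libraries had a lower mean Shank3 level than its WT group. In cohort 2 the naive levels were 5.77, 7.90, 5.44 and 5.98 CPM in WT and 15.9, 16.2, 15.4 and 12.9 CPM in Shank3(∆C/+) mice, and the groups did not overlap. In cohort 1 they were 6.92, 11.5 and 9.42 CPM against 10.1, 10.5 and 16.4 CPM, with 1 mutant library above every WT library.

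At 1 h after the swim Shank3 was at 11 ± 3.58 CPM in Shank3(∆C/+) (SD, n = 5) and 9.15 ± 2.04 CPM in WT mice (SD, n = 6). At 4 h it was at 6.55, 9.41, 13.4, 11.8 and 19.7 CPM in the WT libraries, and the 6 mutant libraries ran from 11.7 over a median of 22.9 to 34.6 CPM. Of those 6, 3 lay above every WT library. As log2 fold changes of Shank3(∆C/+) over WT, the differences were 0.83 ± 0.314 in naive mice, 0.28 ± 0.297 at 1 h, 0.85 ± 0.235 at 4 h and 0.65 ± 0.164 averaged over conditions (± SE from edgeR's quasi-likelihood fit). None passed an adjusted p of 0.05: the adjusted p of the average was 0.794 in the main edgeR fit and 0.0644 with the pair share as a covariate. By the same edgeR test the unadjusted p was 0.0115 for naive mice, 0.357 for 1 h and 0.000866 for 4 h. The naive difference rested on cohort 2, with a log2 fold change of 1.30 ± 0.401 there and 0.36 ± 0.483 in cohort 1. Without the libraries rich in ribosomal RNA it was 0.87.

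Shank1 and Shank2 were close between genotypes in naive mice and at 1 h. Their log2 fold changes were -0.02 ± 0.218 and 0.05 ± 0.217 in naive mice (± SE). At 1 h they were -0.06 ± 0.228 and -0.09 ± 0.211. At 4 h Shank1 was at 50.7 ± 19.2 CPM in Shank3(∆C/+) (SD, n = 6) and 37.4 ± 10.7 CPM in WT mice (SD, n = 5), and Shank2 at 69.6 ± 21.9 and 57.5 ± 14.4 CPM. In each case 3 of the 6 mutant libraries lay above every WT library and the groups overlapped. For both genes, and for Shank3, these were replicates 1, 3 and 5, with pair shares of 33.1, 32.7 and 30.1%. The other mutant libraries at 4 h had 17.5, 21.8 and 18.2%, and the WT libraries 17.0 to 31.6%. The log2 fold changes at 4 h were 0.44 ± 0.208 for Shank1 and 0.28 ± 0.180 for Shank2 (± SE). With the pair share as a covariate they were 0.30 ± 0.151 and 0.12 ± 0.113. By edgeR's quasi-likelihood test 0 of the 3 Shank genes passed in any genotype comparison. The same test called 0.00882% of all genes in naive mice, 0% at 1 h, 0.00882% at 4 h and 0.0265% averaged over conditions. At an unadjusted p under 0.05 it named Shank3 in naive mice, none at 1 h, Shank1 and Shank3 at 4 h and Shank3 in the average. In the same order 539, 205, 228 and 308 of the 11341 genes tested had an unadjusted p under 0.05. DESeq2 called 0 of the 3 Shank genes in each.

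Gm15609 was the row with the clearest genotype pattern among the 4, by the values that selected it. In naive cohort 1 it held 60, 91 and 78 counts in WT and 177, 182 and 144 in Shank3(∆C/+) libraries, or 104, 105 and 122 against 179, 212 and 182 CPM. In naive cohort 2 it was at 79.6, 79.0, 75.5 and 81.7 CPM in WT and 151, 85.4, 108 and 180 CPM in Shank3(∆C/+) libraries. Neither cohort had an overlap, although the mutant spread in cohort 2, ± 42.6 CPM (SD, n = 4), was wide against the ± 2.58 CPM of WT. At 1 h the 6 WT libraries ran from 36.8 over a median of 72.0 to 102 CPM, and the mutant libraries were at 116, 95.2, 85, 77.6 and 118 CPM. At 4 h WT libraries were at 38.8, 57.9, 27.7, 31.7 and 23.4 CPM, and the 6 mutant libraries ran from 34.2 over 50.5 to 75.4 CPM. The groups overlapped at both times after the swim. The log2 fold changes of Shank3(∆C/+) over WT were 0.75 ± 0.211 in naive mice, 0.59 ± 0.234 at 1 h, 0.61 ± 0.236 at 4 h and 0.65 ± 0.131 averaged (± SE), given with no test.

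Averaged over conditions the values of both rows of the locus were alike, but they were not alike in each condition: 0.28 for Shank3 and 0.59 for Gm15609 at 1 h, 0.36 and 0.79 in naive cohort 1, and 1.30 and 0.72 in naive cohort 2. Within 500 kb of Shank3 on either side, 39 other genes are annotated and 17 were tested. Of these 0 passed in any genotype comparison by edgeR or DESeq2, with 2 at an unadjusted p under 0.05 in naive mice, 1 at 1 h, 0 at 4 h and 1 in the average. Among all 11341 genes tested, 539, 205, 228 and 308 were at that unadjusted p, in the same order.

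Expressed as CPM of the total counts, without the TMM factor, Gm15609 separated the genotypes further. WT means were 70.7, 68.2, 61.7 and 50.5 in naive cohort 1, naive cohort 2, at 1 h and at 4 h, and the Shank3(∆C/+) means were 132.6, 95.6, 95.0 and 79.2. The genotypes did not overlap in either naive cohort or at 1 h, and at 4 h 5 of 6 mutant libraries lay above every WT library. The sum of Shank3 and Gm15609 does not depend on how reads counted on these rows were divided between them. Reads counted on neither row would be missing from the sum. Only 2.95% of the Shank3 exon bases face Gm15609. Under a setting opposite to the kit, reads of the other Shank3 exons would therefore be on neither row. Whether any reads were missing, of these exons or of the shared exon, was not tested, so the sum may still depend on the strand setting. The sum ran from 53.2 over a median of 72.9 to 88.2 CPM in the 18 WT libraries. In the 18 Shank3(∆C/+) libraries it ran from 88.6 over 113.0 to 144.1 CPM, so 18 of 18 lay above every WT library. Since Gm15609 was chosen on this contrast and makes up most of the sum, this too is a description. The sum is diluted where ribosomal RNA takes counts, as in naive Shank3(∆C/+) replicate 7, the lowest of its group at 95.8 CPM.

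**Figure D2:**
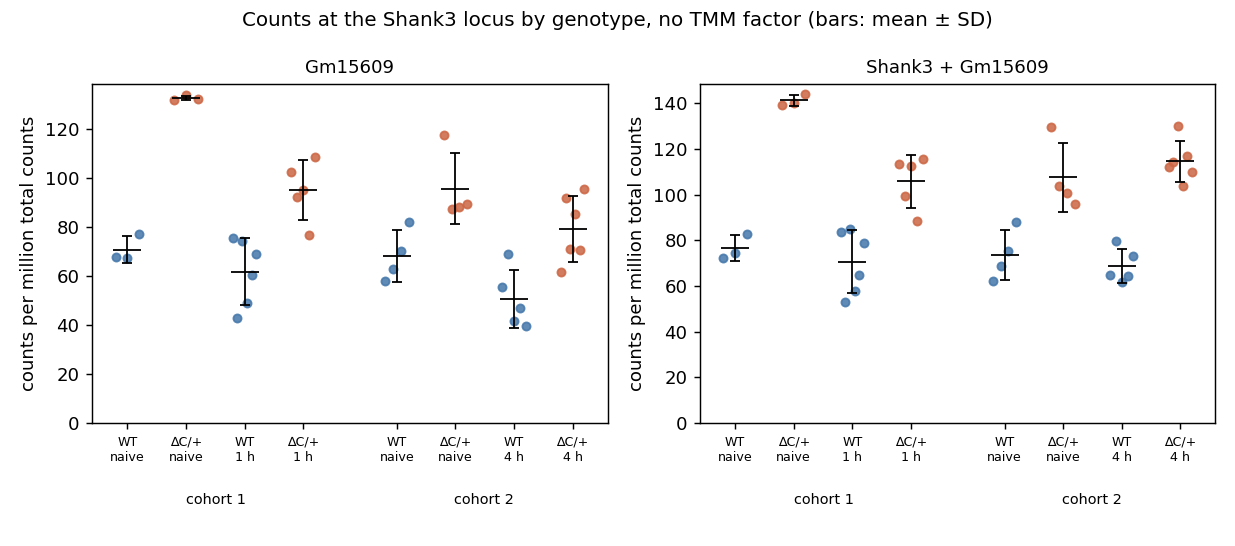
CPM of the total counts, without a TMM factor, of Gm15609 (left) and of Shank3 plus Gm15609 (right) in each library (points; WT blue, Shank3(∆C/+) orange), with group mean and SD (bars). In the right panel the highest WT library is at 88.2 and the lowest Shank3(∆C/+) library at 88.6 CPM.

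At 1 h after the swim no Shank gene differed from naive mice past the threshold, and Gm15609 fell in both genotypes. All 6 WT libraries at 1 h lay below every naive WT library of cohort 1 on the CPM scale, and all 5 Shank3(∆C/+) libraries lay below theirs. On CPM of total counts 3 of the 6 WT libraries and all 5 Shank3(∆C/+) libraries did so. How many of all genes separate in this way, here or in the other comparisons, was not counted. The log2 fold change of Gm15609 was -0.75 ± 0.278 in WT (adjusted p = 0.0347 by edgeR's quasi-likelihood test) and -0.95 ± 0.271 in Shank3(∆C/+) mice (adjusted p = 0.0255 by the same edgeR test). Thus 1 of 4 members was called in each, where the test called 34.2% of all genes in WT and 12.2% in Shank3(∆C/+) mice. The kind of row to which Gm15609 belongs, the 1236 noncoding rows that face a coding exon, had medians of -0.79 and -0.62. Of these rows 48.0% fell past the threshold in WT and 17.6% in Shank3(∆C/+) mice. The call in WT ended without any 1 of naive WT replicates 1, 2 and 3 or WT 1 h replicates 2 and 4 (adjusted p up to 0.128 by edgeR). The call in Shank3(∆C/+) mice ended without naive replicate 2 or 3 or 1 h replicate 3 or 4 (up to 0.154). Both ended on total counts, with -0.20 and -0.48, and under the replicate block, with -0.72 and -0.89.

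At 1 h the log2 fold change of Shank1 was -0.43 ± 0.281 for WT and -0.41 ± 0.280 for Shank3(∆C/+) mice, with adjusted p of 0.223 and 0.314 by edgeR. It ran from 27.8 over a median of 32.3 to 50.7 CPM in WT, with 5 of 6 libraries below every naive WT library of the cohort. With the pair share in the model Shank1 passed, at -0.83 ± 0.244 and -0.70 ± 0.231 (adjusted p = 0.0114 and 0.0375 by edgeR), while on total counts its sign turned, to 0.16 and 0.09. Shank2 stayed near its naive level, with 0.25 ± 0.285 and 0.03 ± 0.274, and so did Shank3, with -0.06 ± 0.425 and -0.14 ± 0.378 (± SE).

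At 4 h after the swim Shank2 rose and Gm15609 fell in both genotypes. Shank2 was at 20.8, 19.7, 23.1 and 25.9 CPM in the naive WT libraries of cohort 2 and at 50.0, 42.8, 53.1, 60.9 and 80.4 CPM in the WT 4 h libraries. In Shank3(∆C/+) mice it was at 22.5, 26.0, 19.0 and 18.6 CPM when naive and ran from 38.3 over 73.0 to 92.5 CPM at 4 h. Every 4 h library of either genotype lay above every naive library of its group. The log2 fold change was 1.36 ± 0.234 in WT (adjusted p = 1.9e-05 by edgeR) and 1.67 ± 0.231 in Shank3(∆C/+) mice (adjusted p = 1.4e-06 by edgeR). Among all genes tested, 11.5% and 8.38% had a higher value. The 5942 protein-coding rows with no exon opposite, the kind to which Shank2 belongs, had medians of 0.58 and 0.63.

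Gm15609 dropped at 4 h to 35.9 ± 13.5 CPM in WT (SD, n = 5) and 54.5 ± 18.0 CPM in Shank3(∆C/+) mice (SD, n = 6), from 79.0 ± 2.58 and 131.2 ± 42.6 CPM (SD, n = 4 each) in naive mice of cohort 2. All 4 h libraries lay below all cohort 2 naive libraries of their genotype on this scale. On CPM of total counts 4 of 5 WT and 4 of 6 Shank3(∆C/+) libraries did so. Its log2 fold change was -1.15 ± 0.265 in WT (adjusted p = 0.000454 by edgeR) and -1.27 ± 0.246 in Shank3(∆C/+) mice (adjusted p = 4.7e-05 by edgeR). Rows of its kind moved with it: the 1236 noncoding rows that face a coding exon had medians of -1.15 and -1.30, and 71.0% and 82.3% of them fell past the threshold. On total counts the value of Gm15609 was -0.43 (adjusted p = 0.0428 by edgeR) in WT and -0.27 (adjusted p = 0.179 by edgeR) in Shank3(∆C/+) mice.

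Shank3 and Shank1 each passed in 1 genotype at 4 h. Shank3 rose in WT mice by a log2 fold change of 1.04 ± 0.361 (adjusted p = 0.0148 by edgeR) and stood at 0.58 ± 0.289 in Shank3(∆C/+) mice (adjusted p = 0.0793 by edgeR). The WT call ended without naive WT replicate 6 or WT 4 h replicate 5 (adjusted p up to 0.0890 by edgeR) and under the replicate block (0.0913). The Shank3(∆C/+) value passed without 4 h replicate 4 or 6 (0.0355 at the lowest), with RLE size factors (0.70, adjusted p = 0.0407) and on total counts (1.57). Shank1 rose in Shank3(∆C/+) mice by 0.65 ± 0.249 (adjusted p = 0.0232 by edgeR), with 3 of 6 libraries above every naive library, and stood at 0.24 ± 0.256 in WT mice (adjusted p = 0.418 by edgeR). This call ended, and its sign turned to -0.24, with the pair share in the model, and it ended without naive replicate 4 or 5 or 4 h replicate 1, 3 or 5 (adjusted p up to 0.0933 by edgeR). In WT mice Shank1 passed only on total counts, among the scalings run, with 1.03. Together 3 of 4 members were called in each genotype at 4 h, against 56.0% of all genes in WT and 62.1% in Shank3(∆C/+) mice.

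The scaling moved all genes together. At 4 h all genes had a median log2 fold change of 0.23 (WT) and 0.22 (Shank3(∆C/+)) with TMM, and 0.98 and 1.17 on total counts. Relative to those medians the members stood at close to the same distance under both scalings. Shank2 stood 1.13 above the WT median with TMM and 1.16 above it on total counts, and 1.45 and 1.49 above that of Shank3(∆C/+) mice. Gm15609 stood at -1.38 and -1.42 in WT and at -1.49 and -1.44 in Shank3(∆C/+) mice. Shank1 lay nearest the median in WT, at 0.02 and 0.04.

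No response differed between the genotypes past the threshold. The interaction of genotype and swim called 0 of 4 members at 1 h and 0 of 4 at 4 h by edgeR, by DESeq2 and at an unadjusted p under 0.05, and it called 0% and 0% of all genes by edgeR. Of the 11341 genes tested 468 and 302 had an unadjusted p under 0.05 by edgeR. The differences of the log2 fold changes, Shank3(∆C/+) minus WT, ran from -0.22 to 0.02 at 1 h, and at 4 h were 0.41 ± 0.357 for Shank1, 0.31 ± 0.329 for Shank2, -0.46 ± 0.466 for Shank3 and -0.11 ± 0.365 for Gm15609 (± SE). The swim calls of Shank1 and Shank3 that passed in only 1 genotype are therefore not shown to differ between genotypes. Naive mice of cohort 2 against cohort 1 gave 0 of 4 members called, where 10.7% of all genes were called by edgeR. Shank1 was at -0.50 ± 0.218 (adjusted p = 0.116 by edgeR) and Gm15609 at -0.52 ± 0.210 (adjusted p = 0.0909 by edgeR). By edgeR 2 of 4 had an unadjusted p under 0.05, as did 3508 of the 11341 genes tested. DESeq2 called 1 of the 4, Gm15609, where it called 1855 of the 11341 genes.

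The pair share moved with the swim, and on the TMM scale Shank2 and Gm15609 moved most closely with it across libraries. Over the 36 libraries, which share groups, depth and scaling, Spearman's rho of log2 CPM with the pair share was 0.85 for Shank2, 0.40 for Shank3, 0.06 for Shank1 and -0.87 for Gm15609. On CPM of total counts rho was 0.94 for Shank2, 0.76 for Shank3, 0.78 for Shank1 and -0.41 for Gm15609. The TMM factors themselves had a rho of 0.98 with the pair share, so these relations depend on the scaling. With the pair share in the model 0 of 4 members passed at 4 h in either genotype. That fit called 7.69% of all genes in WT and 0.529% in Shank3(∆C/+) mice at 4 h. Shank2 was then at 0.50 ± 0.204 in WT and 0.65 ± 0.214 in Shank3(∆C/+) mice (adjusted p = 0.121 and 0.129 by edgeR), and Gm15609 at -0.12 ± 0.189 and -0.0048 ± 0.220 (0.751 and 0.998). Shank3 was at 0.02 ± 0.321 and -0.61 ± 0.315, and Shank1 at -0.50 ± 0.257 and -0.24 ± 0.271. At 4 h the pair share of every library was above that of every naive library of cohort 2, so that in this fit the swim and the pair share cannot be told apart. Averaged over conditions the genotype values barely moved, at 0.61 ± 0.133 for Shank3 and 0.70 ± 0.0712 for Gm15609. At 4 h they went from 0.85 to 0.67 ± 0.171 for Shank3 and from 0.61 to 0.77 ± 0.128 for Gm15609.

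**Figure D3:**
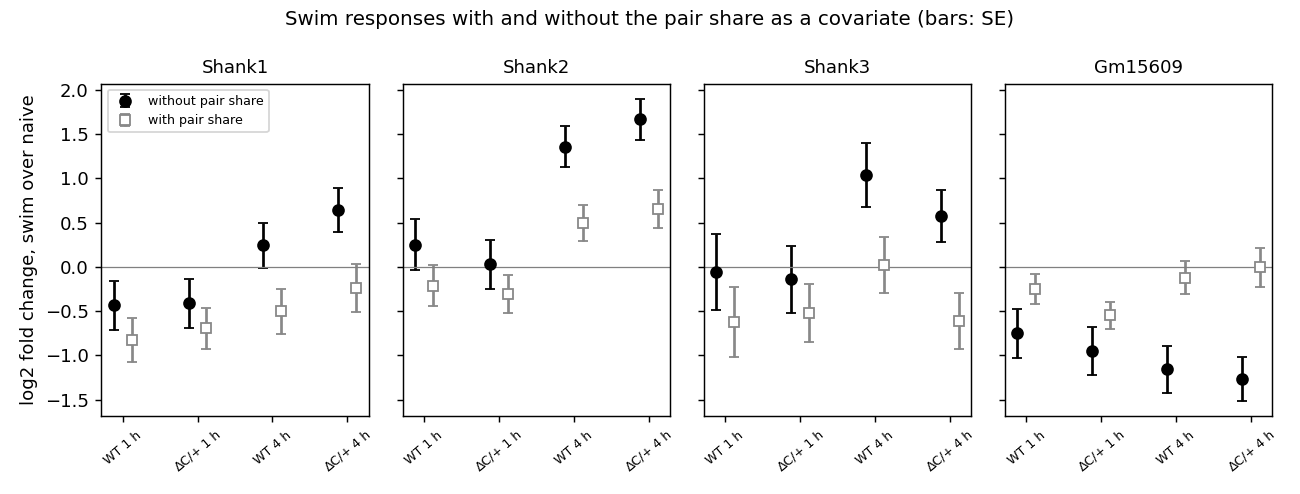
Log2 fold change of swim over naive (points) with its SE (bars) for the 4 members in the 4 swim responses, without the pair share (filled) and with the pair share as a covariate (open squares). With the covariate the Gm15609 points at 4 h move from -1.15 and -1.27 to -0.12 and -0.0048, and those of Shank2 from 1.36 and 1.67 to 0.50 and 0.65.

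The balance between Shank3 and Gm15609 shifted with the swim too. Shank3 made up 7.35 ± 1.16% of the counts of both rows in naive WT mice of cohort 2 (SD, n = 4) and 26.8 ± 13.3% at 4 h (SD, n = 5), with all 5 libraries above every naive one. The difference of 19.4 percentage points had an exact two-sided permutation p of 0.0159 (0.0381 adjusted over 4 comparisons). In Shank3(∆C/+) mice it made up 11.2 ± 3.99% when naive (SD, n = 4) and 30.2 ± 14.8% at 4 h (SD, n = 6), with 5 of 6 libraries above every naive one. That difference of 19.1 points had an exact permutation p of 0.0190 (0.0381 adjusted), which became 0.143 with 17.5 points without the libraries rich in ribosomal RNA. Only replicates 4 and 5 then remain in the naive group, too few for this two-sided test to give a p under 0.05. The larger p therefore does not show that the difference was lost. At 1 h the percent was 12.9 ± 4.33 in WT (SD, n = 6) and 10.4 ± 4.11 in Shank3(∆C/+) libraries (SD, n = 5), against 7.76 ± 1.90 and 6.11 ± 1.90 in naive mice of cohort 1 (SD, n = 3 each). The exact permutation p was 0.0714 and 0.143 (0.0952 and 0.143 adjusted). Without WT 1 h replicate 5 the WT difference grew from 5.15 to 6.31 points and its exact permutation p fell to 0.0357.

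The mean sum of both rows, as CPM of the total counts, lay within 1 naive SD of its naive mean at 4 h in both genotypes and below that range at 1 h in both. It was 76.7 ± 5.57 in naive WT mice of cohort 1 and 70.6 ± 13.8 at 1 h, and 73.6 ± 11.1 in naive WT mice of cohort 2 and 68.8 ± 7.56 at 4 h (SD, n = 3, 6, 4 and 5). In Shank3(∆C/+) mice it was 141.3 ± 2.49 and 105.9 ± 11.6 in cohort 1 and 107.6 ± 15.2 and 114.6 ± 8.83 in cohort 2 (SD, n = 3, 5, 4 and 6). These sums were not tested. Across the 36 libraries the Shank3 percent went with the pair share, with Pearson's r of 0.96 and Spearman's rho of 0.86, although the locus is not part of the pair share. The libraries of both genotypes lie along the same band: 4 libraries at 4 h with a pair share above 30% hold the 4 highest Shank3 percents, from 39.7%, and all other libraries lie at or below 32.5%.

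**Figure D4:**
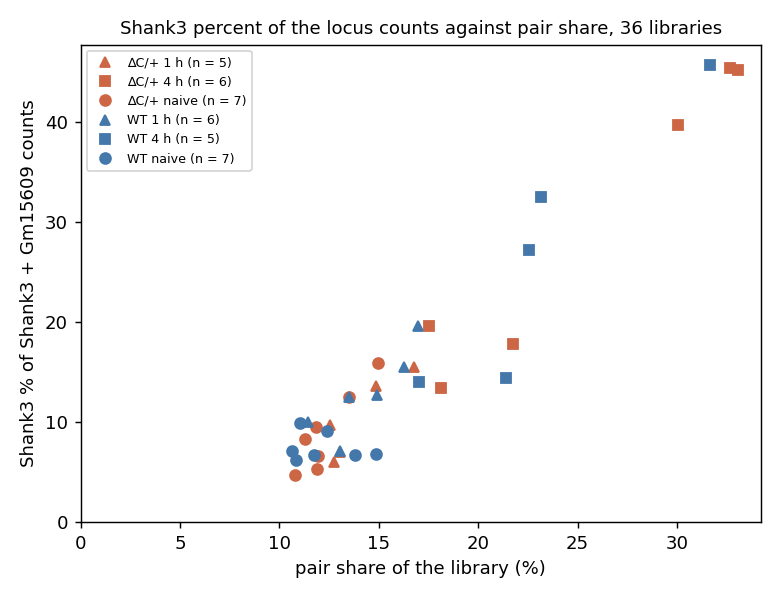
Shank3 percent of the Shank3 plus Gm15609 counts against the pair share of the library, 1 point for each of 36 libraries, by genotype (colour) and condition (shape). Naive libraries sit at the lower left and 4 h libraries spread to the upper right, with group means of 7.35 and 11.2% in naive mice of cohort 2 and 26.8 and 30.2% at 4 h.

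Markers of cell types moved as well at 4 h. The 8 pyramidal neuron markers, all tested, summed to 1431 to 2067 CPM in naive WT and 1574 to 1956 in naive Shank3(∆C/+) libraries of cohort 2, and to 2277 to 3881 and 2212 to 3720 CPM at 4 h. Of 6 astrocyte markers 3 were tested, and the sum of the 6 went from 33.5 to 80.7 CPM in naive WT and 35.8 to 57.0 in naive Shank3(∆C/+) libraries to 78.1 to 102 and 78.4 to 93.5 CPM at 4 h. The 6 oligodendrocyte markers, 4 of them tested, went from 84.2 to 89.8 and 71.6 to 123 CPM to 116 to 268 and 123 to 325 CPM. Both sums thus stood higher at 4 h than in naive mice, and each rests mostly on a row with an exon opposite another gene, Slc1a2 with 3879 counts and Cnp with 7181. Interneuron markers, 3 of 6 tested, summed to 2.96 to 84.3 CPM over all libraries. In cohort 2 the medians were 8.91 CPM in naive WT and 14.0 CPM in naive Shank3(∆C/+) libraries. They were 15.9 and 26.3 CPM at 4 h, and the ranges overlapped in both genotypes. The microglia sum was lower at 4 h, with medians of 676 CPM in naive WT and 680.3 in naive Shank3(∆C/+) libraries of cohort 2 and 268 and 218 CPM at 4 h. It rested on Csf1r, which also has an exon opposite another gene, while C1qa, C1qb, Cx3cr1, P2ry12 and Tmem119 held 2 to 21 counts over all libraries. Of the 5 endothelial markers none was tested, and Cldn5 and Ly6c1 were at 0 in all libraries. The part of these lists in the Shank results was not tested, and more RNA per cell and more cells in the pulldown cannot be told apart in bulk libraries.

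Genes of the proteins that bind Shank, or are joined to it through a binder, moved mostly upward at 4 h. All 23 of a partner list were tested and 8 have an exon opposite another gene. In WT mice 15 rose and 2 fell at 4 h, and in Shank3(∆C/+) mice 16 rose and 2 fell, out of 23. Among all genes 29.0% rose and 26.9% fell in WT, and 32.7% rose and 29.4% fell in Shank3(∆C/+) mice. The medians were 0.79 and 0.93, against 0.23 and 0.22 for all genes. The 9484 protein-coding rows had medians of 0.40 and 0.42, and 33.4 and 38.2% of them rose and 19.5 and 20.2% fell. The 5942 of these with no exon opposite had medians of 0.58 and 0.63, and 39.3 and 45.6% of them rose and 10.4 and 10.4% fell. At 1 h 6 rose and 1 fell in WT and 2 rose and 2 fell in Shank3(∆C/+) mice, with medians of 0.41 and 0.10 against 0.24 and 0.09. The protein-coding rows had medians of 0.39 and 0.19 at 1 h, and those with no exon opposite 0.57 and 0.31. Among all genes 16.9% rose and 17.3% fell in WT, and 4.99% rose and 7.25% fell in Shank3(∆C/+) mice at 1 h. With the pair share in the model 9 and 3 of the 23 passed at 1 h, and 4 and 1 at 4 h, where the same fit called 21.7 and 12.0% of all genes at 1 h and 7.69 and 0.529% at 4 h.

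Homer1, a scaffold that links Shank to metabotropic glutamate receptors and whose short form is made after neuronal activity, rose by 1.55 ± 0.23 in WT (adjusted p = 5.3e-06 by edgeR) and 1.59 ± 0.23 in Shank3(∆C/+) mice (adjusted p = 1.9e-06) at 4 h. It still passed with the pair share in the model (adjusted p = 0.0018 and 0.0228 by edgeR). Homer3 fell by 1.58 on the log2 scale in WT mice and by 1.67 in Shank3(∆C/+) mice, and Dnm2, the dynamin that cuts off endocytic vesicles, fell by 1.81 in WT mice. Each of these falling rows has an exon opposite another gene. With the pair share in the model Homer3 and Dnm2 still passed in WT mice at 4 h (adjusted p = 0.0056 and 0.0346 by edgeR). Neither passed in Shank3(∆C/+) mice (0.0869 and 0.648 by edgeR). Dlgap4, a SAPAP scaffold, rose by 2.21 in Shank3(∆C/+) mice, and its row too has an exon opposite another gene. At 1 h in WT mice Dlg1, which encodes SAP97, rose by 0.89 ± 0.20, Sptan1, a spectrin, by 0.87 ± 0.24, and Dlgap2, a further SAPAP scaffold, by 2.38 ± 0.68 (adjusted p = 0.0017, 0.0064 and 0.0081 by edgeR). In Shank3(∆C/+) mice at 1 h Abi1, an actin regulator of the WAVE complex, rose by 0.90 ± 0.27, Dlg1 by 0.58 ± 0.19, and Dnm2 fell by 0.94 on the log2 scale (adjusted p = 0.0299, 0.0408 and 0.0360 by edgeR). The Abi1 row, like that of Dnm2, has an exon opposite another gene. In the genotype comparisons and the interactions 0 of 23 partners passed by edgeR or DESeq2. At an unadjusted p under 0.05 there were 2 in naive mice, 1 at 4 h and 1 in the interaction at 4 h, and 0 in the others. Of all 11341 genes tested 539, 228 and 302 were at that p in these 3 comparisons. In the others there were 205 at 1 h, 308 in the average and 468 in the interaction at 1 h.

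**Figure D5:**
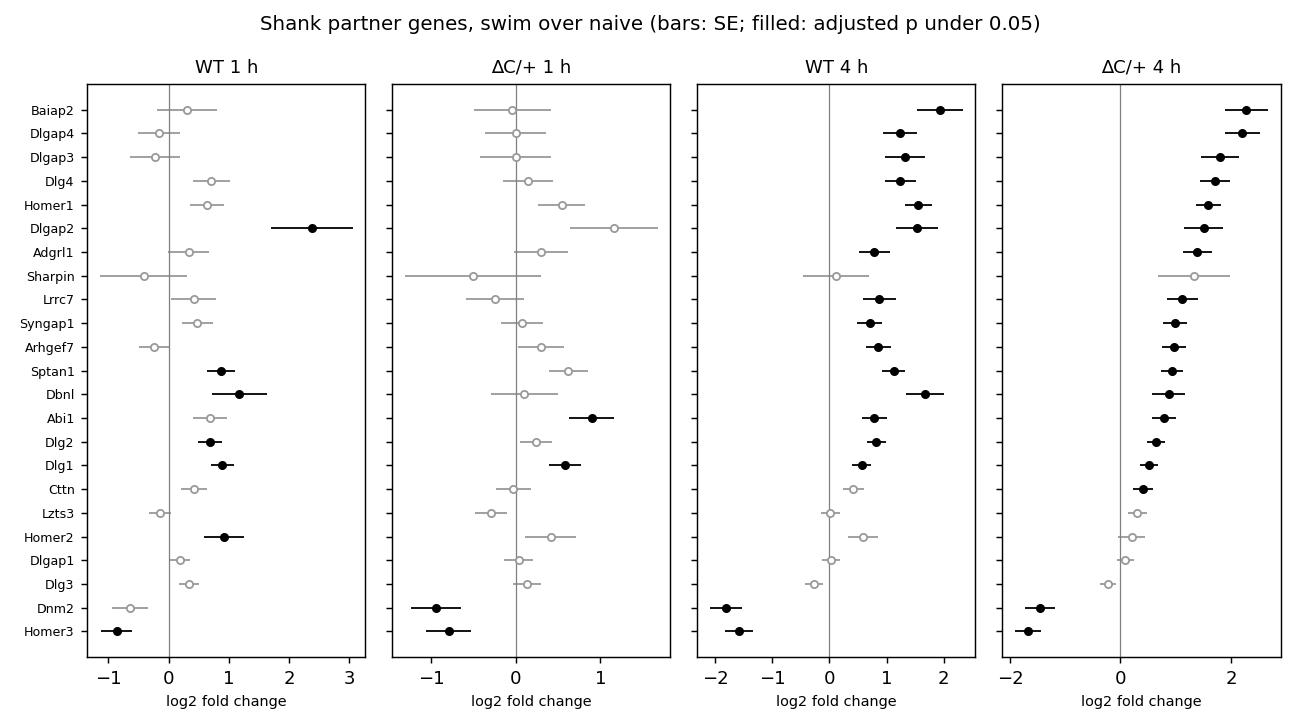
Log2 fold change of swim over naive (points) with its SE (bars) for the 23 Shank partner genes in the 4 swim responses, ordered by the value in Shank3(∆C/+) mice at 4 h; filled points passed an adjusted p of 0.05. At 4 h 15 and 16 of 23 rose and Homer3 and Dnm2 fell in both genotypes.

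Around Shank3 more of the tested genes fell than rose after the swim. Of the 17, 1 rose and 7 fell in WT and 0 rose and 3 fell in Shank3(∆C/+) mice at 1 h, and 2 rose and 9 fell and 4 rose and 7 fell at 4 h. Among all genes 16.9% rose and 17.3% fell in WT at 1 h, and 4.99% rose and 7.25% fell in Shank3(∆C/+) mice. At 4 h the shares were 29.0% and 26.9% in WT, and 32.7% and 29.4% in Shank3(∆C/+) mice. Thus 8 and 3 were called at 1 h, where 34.2 and 12.2% of all genes were, and 11 and 11 at 4 h, where 56.0 and 62.1% of all genes were, so the number called at 4 h is no result about these neighbours. Of the 17, 9 have an exon opposite another gene. In both genotypes at 4 h Tymp, which encodes thymidine phosphorylase, fell, by 1.86 and 2.03 on the log2 scale. Arsa, the lysosomal arylsulfatase A, Ncaph2, a condensin subunit, Tubgcp6, a part of the ring that nucleates microtubules, Selenoo, and the rows 1810021B22Rik and C730034F03Rik also fell in both. Tymp and all of these rows have an exon opposite another gene. Panx2, a pannexin channel gene, rose by 1.86 ± 0.50 in WT and 1.83 ± 0.45 in Shank3(∆C/+) mice, and Sbf1, a myotubularin-related gene, by 1.73 ± 0.47 and 2.46 ± 0.48, and neither has an exon opposite. In WT mice Mapk12 and Dennd6b fell as well, and in Shank3(∆C/+) mice Mapk11 and Ppp6r2 rose, and none of these has an exon opposite. At 1 h in WT mice Dennd6b, 1810021B22Rik, Ncaph2, C730034F03Rik, Arsa, Trabd and Tymp fell, by 0.80 to 2.08 on the log2 scale, and Sco2 rose by 1.17 ± 0.27. Apart from Dennd6b, each of these has an exon opposite another gene. In Shank3(∆C/+) mice C730034F03Rik, 1810021B22Rik and Ncaph2 fell at 1 h. With the pair share in the model 7, 4, 2 and 0 of the 17 passed, in the order WT 1 h, Shank3(∆C/+) 1 h, WT 4 h and Shank3(∆C/+) 4 h. The same fit called 21.7, 12.0, 7.69 and 0.529% of all genes, in that order.

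The members did not share a common pattern across libraries. Over the 36 libraries Spearman's rho of log2 CPM was 0.44 between Shank1 and Shank3, 0.43 between Shank2 and Shank3 and 0.29 between Shank1 and Shank2. Between Gm15609 and the Shank genes it was -0.76 for Shank2, -0.11 for Shank3 and -0.02 for Shank1. The genes most like Shank2 were Gipc1, Gnb2 and Baiap2, each with a rho of 0.90, and Baiap2 is the IRSp53 scaffold of the partner list. Most like Gm15609 were Col20a1 (rho 0.92), 4933406B15Rik (0.91) and Sh3pxd2a (0.91). Shank3 and Shank1 had no such close match: Tsc22d3 (0.70), Pcbp4 (0.67) and Phf2 (0.66) were nearest to Shank3, and Tars2 (0.67), Inf2 (0.66) and Supv3l1 (0.65) to Shank1.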

How the data were processed

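Whole-number counts per gene for each of 36 libraries were used as deposited by the authors, not normalized, with 55470 rows per file. Tools named in the submitters' processing notes are Salmon 1.4, StringTie 2.1.3, HISAT2 2.2.0, Trimmomatic 0.39, FastQC and DESeq2, with the mm10 build. Which tool made the counts, and its strand setting, are not given in the sources used here. The labels state a stranded TruSeq mRNA kit, paired reads of 100 bp and 15 M reads per sample; total counts were 5.89 to 23.5% of that, with a mean of 1.58 ± 0.553 M (SD, n = 36), which sets the precision of each gene.

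Groups, replicates and cohorts came from the labels, which tie no library to an animal, so the spread behind each p-value is that of libraries and may be technical. In 68 pairs of libraries of 1 group and cohort chi-square was at least 1.46 per degree of freedom, so no library was counted as deposited again. Counts were fitted with edgeR 4.0.16 (R 4.3.3; quasi-likelihood, robust, TMM, low-count filter) over 8 cells of genotype, treatment and cohort with 28 residual degrees of freedom. This left 11341 genes, the 4 members and all 23 partner genes among them. Benjamini-Hochberg adjustment ran over all of them for every one of 11 comparisons, and an adjusted p under 0.05 was called. SEs were taken from the log2 fold change and the square root of F, and can be too small at few counts. The Shank3 percent was tested by exact permutation (SciPy 1.17.1). The common biological coefficient of variation was 24.2%, and 13.3% with the pair share, which had a Spearman's rho of 0.98 with the TMM factors. On simulated counts for the WT 4 h comparison (11341 genes), 3 of 67 genes changed 1.5-fold, 33 of 67 changed 2-fold and 60 of 66 changed 4-fold were recovered, with 5 false calls. In the simulation all other genes kept the same mean level in every group, and the changes went in both directions. In the data 56.0% of all genes were called in that comparison, so the simulation does not give the recovery or the false calls there. Alternatives were DESeq2 1.42.0, RLE size factors, no filter, a replicate block, the pair share as a covariate, leaving out libraries and, chosen after seeing the data, total-count scaling.

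The members, lists and tests were chosen with earlier results of these data known. The text names the members in every comparison, the 3 partner genes with the smallest p past the threshold in each swim response, neighbours past the threshold, and the 3 genes most alike each member among those whose log2 CPM averaged 1 or more. Exon positions and sequences are from GENCODE vM21. Of the rows, 55143 matched a symbol and 55229 a position. Protein sequences were not used here.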

Additional observations from a re-analysis of the deposited data

Results flagged for a closer look

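Among 24 groups of 4 or more libraries of 1 member, 2 had a library far from the others by Dixon's 95% limit, where chance alone would mark about 1 in 20. Both were Shank1 levels after the swim. Shank1 stood at 50.7 CPM in WT 1 h replicate 6, where the next highest of the 6 libraries was at 35.3 CPM. It stood at 56.1 CPM in WT 4 h replicate 5, where the next highest of the 5 was at 34.2 CPM. The same 4 h library also had the highest Shank2 level of its group, 80.4 CPM, the highest Shank3 level, 19.7 CPM, and the lowest Gm15609 level, 23.4 CPM, with a pair share of 31.6%.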

How the results depend on the processing

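Of 308 member values under another setting, 264 kept direction and side of the threshold, 12 lost the call, 7 gained it and 25 turned sign. Of 632 without 1 library the numbers were 578, 16, 3 and 35. Of the values that turned sign, 1 had been called: Shank1 in Shank3(∆C/+) mice at 4 h, with the pair share. The cause of the changes was not tested.

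Counts of genes past the threshold changed as follows. Without the low-count filter, which tests more genes, they were 7 (genotype, naive), 1 (1 h), 5 (4 h), 8 (average) and 5 (interaction at 4 h). With the pair share they were 3 (naive), 3 (4 h), 2461 (swim, WT 1 h), 872 (WT 4 h) and 60 (Shank3(∆C/+) 4 h). On total counts they were 0 (naive) and 1 (average). DESeq2 gave 1 (interaction at 4 h) and 1855 (cohorts). Without 1 library, which leaves fewer samples, they ran from 0 to 6 (naive; 0 without WT replicate 2 or Shank3(∆C/+) replicate 2 or 5, and up to 6 without WT replicate 3 or 4), 1 to 3 (average; lowest without naive WT replicate 2), 2325 to 4612 (WT 1 h; 2325 to 2577 without naive replicate 1, 2 or 3), 58 to 1672 (Shank3(∆C/+) 1 h; 58, 205 and 254 without naive replicates 2 and 3 and 1 h replicate 3, and 766 to 910 without naive replicate 1 or 1 h replicate 2, 4 or 5), 0 to 2 and 0 to 1 (interactions at 1 h, without naive WT replicate 3, and 4 h, without naive WT replicate 5 or WT 4 h replicate 4) and 179 to 1943 (cohorts; 179 to 657 without WT replicate 1, 3, 6 or 7 or Shank3(∆C/+) replicate 2, 3, 5 or 6, and 1943 without WT replicate 4).

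Members called were 0 at 1 h in each genotype under the replicate block and on total counts, 2 in Shank3(∆C/+) mice at 1 h with the pair share, 0 at 4 h in each genotype with it, and 1 between cohorts with it or by DESeq2. The fit with the pair share called 12.0% of all genes in Shank3(∆C/+) mice at 1 h. At 4 h it called 7.69% in WT and 0.529% in Shank3(∆C/+) mice. Between cohorts DESeq2 called 1855 of 11341 genes, and the number for the pair share fit is not given here. The single calls between cohorts are thus no result about the members. Without 1 library they ran from 0 to 1 at 1 h in each genotype and between cohorts (1 without naive Shank3(∆C/+) replicate 7).

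Signs turned without the filter for Shank1 (genotype, naive, 0.0079; interaction at 1 h, -0.013), Shank3 (WT 1 h, 0.0423) and Shank2 (cohorts, 0.0099). With the pair share they turned for Shank2 at 1 h (-0.21 and -0.30), Shank1 at 4 h (-0.50 and -0.24), Shank3 (Shank3(∆C/+) 4 h, -0.61; interaction at 1 h, 0.10) and Gm15609 (interaction at 4 h, 0.12). On total counts they turned at 1 h for Shank1 (0.16 and 0.0871) and Shank3 (0.56 and 0.35), and for Shank1 (interaction at 1 h, -0.0772), Gm15609 (interaction at 4 h, 0.17), Shank2 (cohorts, 0.29) and Shank3 (cohorts, 0.15). Without the libraries rich in ribosomal RNA they turned for Shank3 (WT 1 h, 0.0247), Gm15609 (interaction at 4 h, 0.0492) and Shank2 (cohorts, 0.0513).

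Same-numbered libraries did not all deviate together (17 pairs, correlation -0.252 to 0.735, 5 over 0.1, 5 best with their own number). The highest were 0.735 and 0.691 for replicates 5 and 2 at 4 h and 0.357 for replicate 1 at 1 h. With this mixed result the numbers were not taken as pairs in the main fit, and the replicate block was run as an alternative. Under the replicate block 493 genes passed in Shank3(∆C/+) mice at 1 h and 23 between cohorts, and the sign turned for Shank3 (WT 1 h, 0.0472; cohorts, 0.0710) and Shank2 (Shank3(∆C/+) 1 h, -0.0176).

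Without 1 library the ranges that crossed 0 were, in the genotype comparisons, Shank1 -0.11 to 0.0269 and Shank2 -0.0225 to 0.17 in naive mice and Shank1 -0.17 to 0.0882 at 1 h. In the swim responses at 1 h they were Shank3 -0.21 to 0.16 in WT and -0.32 to 0.12 in Shank3(∆C/+) mice, and Shank2 -0.0915 to 0.13 in Shank3(∆C/+) mice. In the interactions they were Shank1 -0.0891 to 0.20 and Shank3 -0.29 to 0.17 at 1 h and Gm15609 -0.28 to 0.12 at 4 h, and between cohorts Shank2 -0.10 to 0.10. The Shank3 percent of the locus counts at 1 h in WT rose by 3.82 to 6.31 points, with an exact permutation p of 0.0357 at 6.31, the value without WT 1 h replicate 5 and without the libraries rich in ribosomal RNA. In Shank3(∆C/+) mice at 4 h it rose by 17.5 points without those libraries.

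Depth limits Shank3 most, with 4 to 13 counts in all but 1 of the naive libraries.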
